A study of Arabidopsis thaliana with 4 samples.

Results

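The block described here is a stretch of 8 consecutive plates, TA29 to TA36, on a tiling array of Arabidopsis thaliana. It holds 749 listed tiles, of which 748 have a score, out of 21716 scored tiles in all. A tile is an array feature whose identifier gives a set, a plate number, a row letter and a column number, so that TA33D05 is the tile of set TA, plate 33, row D and column 5. The block was chosen by the plate medians of both preparations, as the stretch between 2 long runs of plates with low medians, TA20 to TA28 before it and TA37 to TA51 after it. These are the scores described below, so the levels of its plates are a description and no test is made of them. Wells that are not listed in the table used here (19 on plate TA29) were not analysed here, and tile TA36G12 is listed without a score.

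Chromatin came from untreated Col-0 seedlings, a common laboratory strain. Their age is labelled as 10 days, and as 10 to 11 days in the growth notes, and they were kept in liquid culture at 22 °C under 16 h of daily light. Fragments carrying histone H3 trimethylated on lysine 9 (H3K9me3) were immunoprecipitated with an antibody sold by Upstate and hybridised beside input chromatin of the same preparation on 2-colour arrays. There were 2 preparations, I and II, each on 2 arrays with the dyes exchanged, and all 4 arrays form 1 group with no other genotype, treatment or antibody beside it. Whole seedlings mix many cell types, and nothing in the labels says that the preparations came from separate cultures, so the spread between them may be technical.

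A methyl group on a histone tail changes no base of the DNA but is read by proteins that pack or open chromatin. In animals H3K9me3 is best known from silent, condensed chromatin. In Arabidopsis that place is taken largely by H3K9me2, which lies over transposons and repeats around the centromeres and in knobs of condensed chromatin on chromosome arms, while H3K9me3 has been described mainly over genes. The question asked of the arrays was how strongly each stretch of tiled sequence was brought down by the antibody. None of the tile identifiers matched the gene table of the TAIR10.1 assembly (0 matches), so no gene, annotation, sequence or genome position is given for a tile, and whether the block lies in gene-rich or condensed chromatin was not tested. Peaks, troughs, runs and neighbours below are those of the order of identifiers. Whether that order follows the genome was not tested.

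The deposited values were identical on both arrays of a dye-swap pair, and each pair is counted as 1 replicate (n = 2 preparations). In the block the deposited score ran from -2.11 to 1.35 in preparation I, with a median of -1.18, and from -2.65 to 0.78 in preparation II, with a median of -1.43. All scores below are centred, meaning that the median of all 21716 tiles of the same preparation (-1.09 in I and -1.35 in II, as deposited) was subtracted, and are in score units. Neither the log base of the score nor its direction (which of the immunoprecipitate and the input stands on top of the ratio) is given in the sources used here. Higher and lower describe the score, not the amount of the mark. A mean score is the mean of both preparations, and a tile with a mean score of at least 1 is called high.

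Most scores of the block lay near the median of the array, as they did among all tiles, with a minority of high tiles. The block medians were -0.096 in I and -0.083 in II. The median of the mean scores was -0.12. From the 10th to the 90th percentile the mean scores ran from -0.57 to 0.83, and the extremes were -1.13 and 2.28. A mean score above 0 was found at 324 tiles (43.3%), and 496 tiles (66.3%) lay within 0.5 of the median of the array. Among all tiles these shares were 49.8% and 64.9%. High tiles numbered 57, or 7.62% of the block, beside 11.9% of all tiles on the array. At -1 or less there was 1 tile, TA36H06 (0.134%), beside 0.327% of all tiles. The distribution leaned to the upper side in both preparations, with a skewness of 1.27 in I and 0.84 in II. Skewness was 1.05 and 0.78 over all tiles. It was larger on TA20 to TA28 (2.08 and 1.57) and on TA37 to TA51 (2.54 and 2.26).

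**Figure D1:**
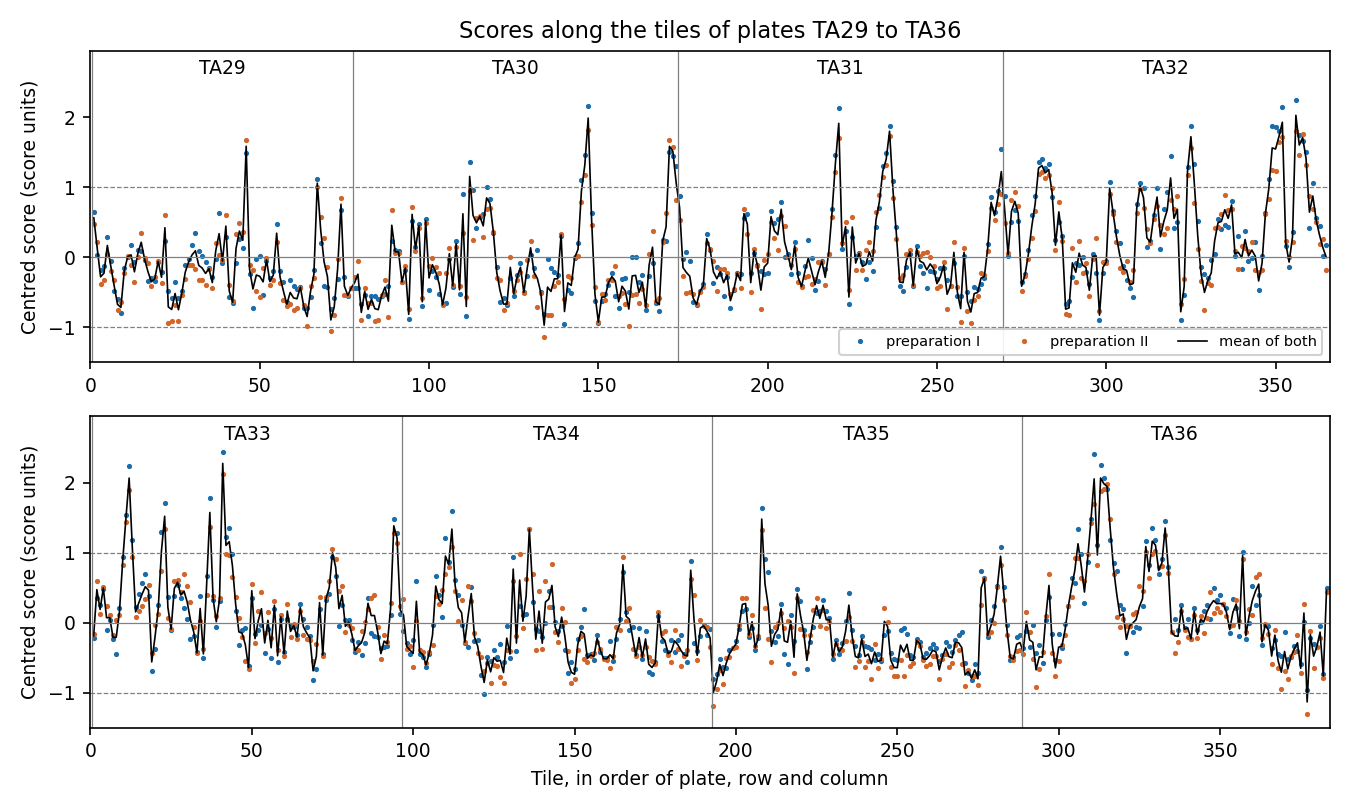
Centred score (vertical axis, score units) of the 748 tiles in order of plate, row and column, with plates TA29 to TA32 above and TA33 to TA36 below. Points are preparations I and II, the line is their mean, and dashed lines mark 1 and -1; peaks above 1 crowd on TA32, TA33 and TA36, and TA34 and TA35 hold 3 high tiles between them.

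Between its low neighbours the block was intermediate in level. The 804 tiles of TA20 to TA28 had medians of -0.31 in preparation I and -0.39 in preparation II. Plates TA37 to TA51 had -0.35 and -0.53 over 1352 tiles. The other 18812 tiles of the array, outside the block and both of these stretches, had 0.065 and 0.062. The share of high tiles ran in the same order, with 4.1% on TA20 to TA28, 0.888% on TA37 to TA51, 7.62% in the block and 13.2% elsewhere. The lower edge moved less than the upper one. The 10th percentile of the mean score was -0.69 in both low stretches, -0.57 in the block and -0.46 elsewhere, whereas the 90th percentile was 0.32 on TA20 to TA28, -0.047 on TA37 to TA51, 0.83 in the block and 1.17 elsewhere. These differences follow in part from the way the stretches were chosen, and none was tested.

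With limma, a linear model with a spread shared across tiles, 188 tiles of the block were called higher than the median of the array and 233 were called lower, at a Benjamini-Hochberg adjusted p under 0.05 with n = 2 preparations. These are 25.1% and 31.1% of the block, beside 31.6% higher and 25% lower over all tiles. The call amounts to a mean score at least 0.31 from 0, because limma estimated 1 spread for all tiles (SD 0.20 per preparation). The scores of this fit were also those that set the block apart, so nothing is read from the difference of the shares.

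The block was not uniform, and 3 of its 8 plates would themselves count as low. A plate was called low when its median lay below -0.2 in both preparations, and TA30, TA34 and TA35 met that limit without forming a run of 3 plates. TA29 stood just outside it, at -0.18 in preparation I and -0.31 in preparation II. The plates on either side of the block were lower still. TA28 had medians of -0.31 in I and -0.42 in II, and TA37 had -0.43 and -0.63. At the ends of the block the last tile of TA28, TA28H12, scored 0.29 in preparation I and -0.24 in preparation II, and the first tile inside, TA29A01, scored 0.65 and 0.48. The last tile of the block, TA36H12, scored 0.50 in I and 0.43 in II, and TA37A01 behind it scored -0.42 and -0.83. Both outer ends of the block thus carried tiles above 0 in both preparations. The neighbour beyond the far end was below 0 in both, and the neighbour before the near end was above 0 only in preparation I.

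**Figure D2:**
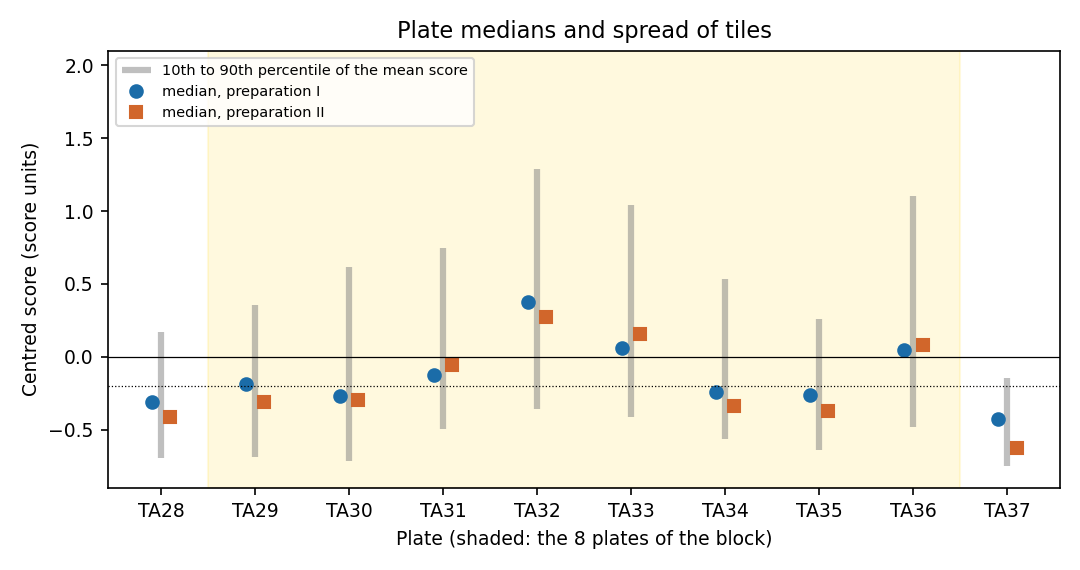
Median centred score (score units) of each plate in preparation I (circles) and II (squares), with grey bars from the 10th to the 90th percentile of the mean scores of its tiles. Shading marks the block and the dotted line the limit of -0.2; TA32 is the highest plate in both preparations and TA37, just outside, the lowest.

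Plate TA32 was the highest of the block. Its medians were 0.38 in I and 0.27 in II, and it ranked 30th of 231 plates by the median of its mean scores. It carried 17 high tiles of 96 (17.7%), and 69 of its tiles (71.9%) had a mean score above 0. Its highest tile, TA32H03, scored 2.25 in preparation I and 1.81 in preparation II (mean 2.03 ± 0.31, SD, n = 2). Its lowest, TA32C05, had -0.89 and -0.77 (mean -0.83 ± 0.089, SD, n = 2), below the lowest tiles of TA31 and TA33 on either side. The 10th percentile of its mean scores, -0.36, was the highest of the 8 plates.

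TA33 followed, with a median of 0.057 in preparation I and 0.16 in preparation II, and 12 high tiles of 96. It carried the highest tile of the block, TA33D05, at 2.44 in I and 2.12 in II (mean 2.28 ± 0.22, SD, n = 2). TA33A12, the third highest, scored 2.24 and 1.90 (mean 2.07 ± 0.25, SD, n = 2). The lowest tile of the plate was TA33F09, with -0.82 and -0.55. Together TA32 and TA33 held 29 of the 57 high tiles (50.9%) on 192 of the 748 tiles.

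TA36, the last plate, resembled TA33 in level. Its medians were 0.047 in I and 0.082 in II, and 11 of its 95 scored tiles (11.6%) were high. It held both the second highest tile of the block and the lowest. TA36C01 scored 2.25 in preparation I and 1.89 in preparation II (mean 2.07 ± 0.26, SD, n = 2). TA36H06 scored -0.95 in I and -1.31 in II (mean -1.13 ± 0.25, SD, n = 2). It reached -1 in preparation II alone. All 11 high tiles of TA36 lay in rows B to D, and the last 50 scored tiles of the plate, from TA36D10 on, held none and had a median of -0.093.

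The 3 plates nearest the first low stretch had medians below 0 in both preparations. TA29 had 2 high tiles of 77, TA30 had 6 of 96 and TA31 6 of 96. Their medians were -0.18, -0.27 and -0.12 in preparation I and -0.31, -0.29 and -0.060 in preparation II. Peaks on these plates were few but could come close to those of TA32. TA30F10 scored 2.16 and 1.81, and TA31D12 scored 2.13 and 1.70 in preparations I and II. On TA29 the highest tile was TA29E07, with 1.496 in I and 1.67 in II. The lowest tiles were TA29H04 (mean -0.90 ± 0.22, SD, n = 2), TA30E09 (mean -0.97 ± 0.23) and TA31H03 (mean -0.78 ± 0.22), each lower in preparation II than in I.

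A trough lay between the peaks of TA33 and those of TA36. TA34 had a median of -0.24 in preparation I and -0.34 in preparation II, and TA35 had -0.26 and -0.37. Among their 192 tiles only TA34B04, TA34D04 and TA35B04 were high (TA34D04 was chosen after its value was seen). TA34B04 scored 1.59 in I and 1.09 in II, TA34D04 scored 1.34 in both, and TA35B04 scored 1.64 and 1.33. Their lowest tiles were TA34C02, at -1.02 in I and -0.68 in II, and TA35A01, at -0.80 and -1.19. The longest stretch of the block without a high tile ran over 97 tiles from TA35B05 to TA36B05. Its median was -0.24 in I and -0.39 in II, and its highest mean score was 0.95. A stretch of 71 tiles from TA34D05 to TA35B03 came next, with medians of -0.25 and -0.35. Of the high tiles of the block, 5.26% lay on TA34 and TA35.

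High tiles stood beside each other. The 57 fell into 29 runs along the order of identifiers, 1.97 tiles long on average, beside 2.06 tiles for the 1254 runs of the whole array. Single tiles made up 14 of the runs, 6 runs had 2 tiles, 5 had 3 and 4 had 4. Runs of 3 or more held 31 high tiles, which is 54.4% of those in the block, beside 49.4% over the array. No run of the block passed 4 tiles in the mean of both preparations, and the longest on the array had 20. Without preparation II the longest run of the block had 7 tiles, and with the most frequent score of each preparation as 0 it had 8.

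The 4 runs of 4 tiles lay on TA32 and TA36. The run with the highest mean was TA36C01 to TA36C04, with means of 1.86 ± 0.47 (SD across tiles) for preparation I and 1.82 ± 0.23 for preparation II. After TA36C01, its tiles scored 2.07 and 1.91 (TA36C02), 1.91 and 1.99 (TA36C03), and 1.19 and 1.48 (TA36C04) in I and II. The score thus fell along the run in preparation I and held its level over the first 3 tiles in preparation II. A single tile with a mean score of 0.97, TA36B12, parted this run from the pair TA36B10 and TA36B11, which averaged 1.95 in I and 1.56 in II. TA36B11 and TA36B12, named after their values were seen, place a peak of 6 high tiles within 7 consecutive ones.

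The run TA32G08 to TA32G11 had means of 1.92 ± 0.15 (SD across tiles) for preparation I and 1.46 ± 0.26 for preparation II. TA32G08 scored 1.88 and 1.24, TA32G09 1.87 and 1.23, TA32G10 1.80 and 1.64, and TA32G11 2.14 and 1.71. Preparation I was the higher at all 4 tiles, by 0.63 and 0.64 at the first pair. Shortly behind it, after 3 tiles, came the run TA32H03 to TA32H06, with 1.79 ± 0.32 in I and 1.59 ± 0.23 in II. The earlier run TA32A11 to TA32B02 was lower and flat, at 1.34 ± 0.053 in I and 1.18 ± 0.035 in II. These last 2 runs fell outside the rule for named tiles.

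**Figure D3:**
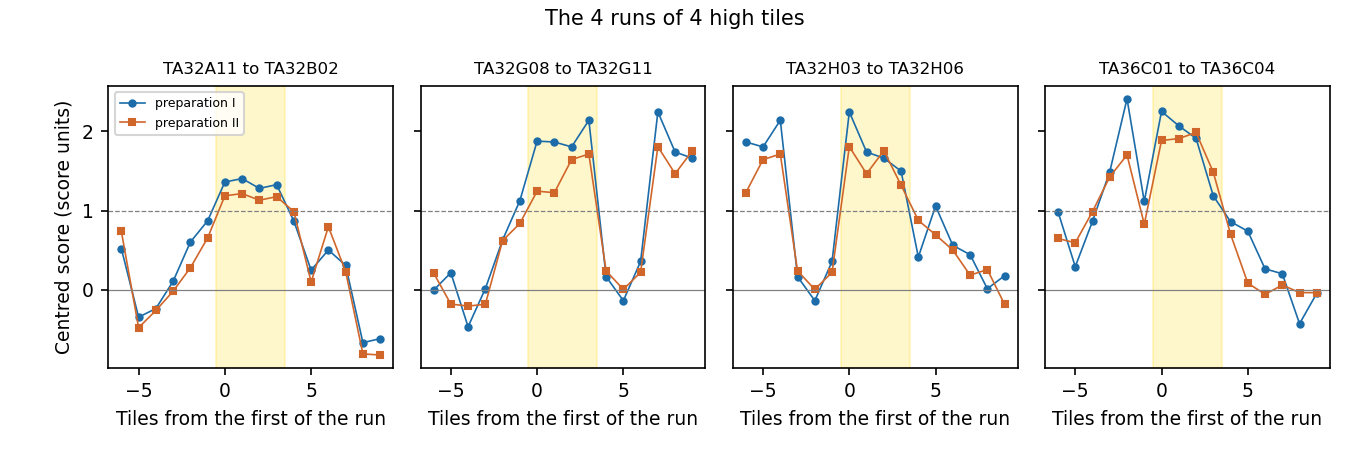
Centred score (score units) of the 4 runs of 4 high tiles (shaded) with the 6 tiles on each side, by distance in tiles from the first of the run, in preparation I (circles) and II (squares). TA32A11 to TA32B02 is flat near 1.3 in I, TA32G08 to TA32G11 ends abruptly at TA32G12, and TA36C01 to TA36C04 follows another peak.

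Around the highest tile the profile was steep on 1 side. TA33D03 and TA33D04, the tiles before TA33D05, scored -0.064 and 0.31 in preparation I and 0.097 and 0.35 in preparation II. TA33D06 and TA33D07 behind it scored 1.23 and 1.35 in I and 0.98 and 0.97 in II. The step from TA33D04 to TA33D05, 1.95 in mean score, was the largest between neighbouring tiles of the block, where the median step was 0.26. The lowest tile, TA36H06, stood below both of its direct neighbours, in the row of wells with the lowest median of TA36 (-0.36). TA36H04 and TA36H05 before TA36H06 had mean scores of -0.65 and 0.14, and TA36H07 and TA36H08 behind it had -0.17 and -0.48.

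Tiles that bordered a run were usually raised too. The 58 positions next to the runs had a mean score of 0.53 ± 0.37 (SD across positions, with a tile between 2 runs counted for both), although a bordering tile is below 1 by construction. For the 14 single high tiles the bordering tiles averaged 0.48 ± 0.39. In 24 of the 29 runs both bordering tiles were above 0, and in none were both below. Borders were not counted for the 1254 runs of the whole array, so this is not read as particular to the block. The lowest border was TA30C10, named after its value was seen, at -0.70 before the single high tile TA30C11. Pearson's r between the mean scores of neighbours was 0.66 over 746 pairs in the block, beside 0.68 over 20918 pairs outside it. Tiles 2 positions apart had r = 0.48, and r was 0.30 at 3 positions and 0.23 at 4. Outside the block these values were 0.43, 0.30 and 0.25. Between preparations, a tile in I correlated with the next tile in II with r = 0.61, and a tile in II with the next in I with r = 0.63. These correlations are across tiles that share arrays and follow each other in the order of identifiers, so they are descriptions with no p.

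Scores of both preparations rose and fell together along most of the block. Over the block they correlated with Pearson's r = 0.90 and Spearman's rho = 0.86 (748 tiles), and 649 tiles (86.8%) had the same sign in both. Over all tiles of the array these values were 0.92, 0.88 and 85.5%. The difference between preparations, I minus II, averaged 0.045 ± 0.27 (SD across tiles), beside 0.069 ± 0.27 over all tiles. It passed 0.5 at 45 tiles (6.02%), beside 7.2% of all tiles. In the block 31 of these were higher in I and 14 in II, and on the whole array 1260 and 303 were. At the high tiles the mean was 1.57 in I and 1.33 in II (I minus II 0.25 ± 0.23, SD across 57 tiles), and I was the higher at 49 of them. For the 2585 high tiles of the whole array I minus II was 0.27 ± 0.27, and I was the higher at 2174. At tiles with a mean score below 0 the difference was 0.050 ± 0.24. Scores of 1 or more were found at 66 tiles in I and 45 in II, with 44 shared, which is 66.7% of the first list and 97.8% of the second. The array as a whole had 2950 in I and 2192 in II, with 2059 shared (69.8% and 93.9%). At -1 or less there was 1 tile in I and 4 in II, with none shared. On the whole array 89 tiles in I and 136 in II reached that limit, with 38 shared.

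The widest disagreement was at TA35B06, which scored 0.73 in preparation I and -0.23 in preparation II (I minus II 0.96). At TA34B09 the order was turned, with -0.34 in I and 0.53 in II. Both tiles lie in the trough, and neither preparation called either of them high. By plate, the correlation of the preparations ran from 0.80 on TA34 to 0.92 on TA36.

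**Figure D4:**
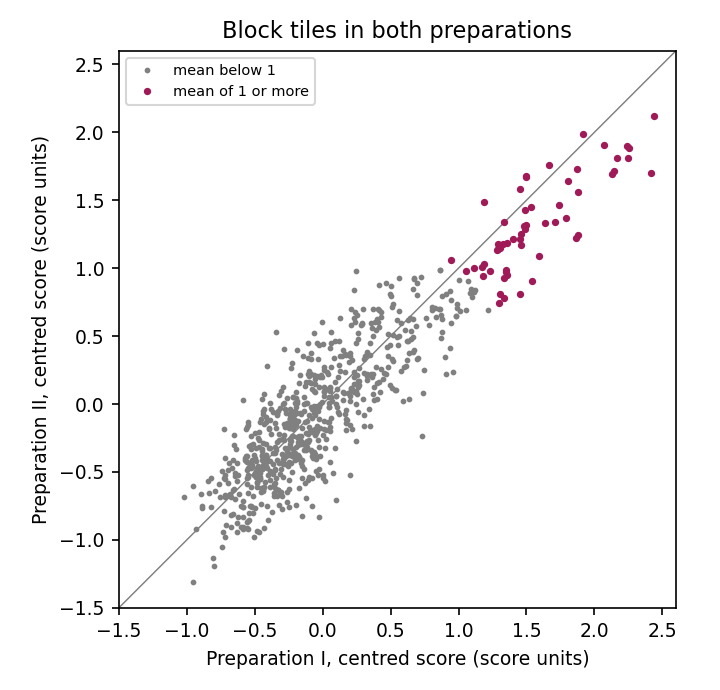
Centred score of the 748 tiles in preparation I (horizontal axis) and preparation II (vertical axis), both in score units, with the line of equal scores. High tiles, marked in colour, lie mostly below the line: preparation I was the higher at 49 of 57. Over the whole array preparation I was the higher at 2174 of 2585 high tiles.

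Within plates, the lettered rows of wells differed. Differences between plates made up 13.3% of the variance of mean scores within the block, beside 19.1% over all 231 plates. Medians of single rows ran from -0.58, in row A of TA30, to 0.78, in row B of TA36. On TA36 rows B and D had medians of 0.78 and 0.75, with row C between them at 0.27 and row A before them at -0.32. On TA34 rows B and D had 0.25 and 0.32, while the medians of the other 6 rows lay between -0.53 and -0.22. On TA32 the lowest row was C, at -0.029, and the highest was A, at 0.64. Of the 748 tiles, those in outer wells had a median of -0.18 (282 tiles) and those in inner wells -0.070 (466 tiles). Whether the position of a well had a part in the scores was not tested.

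**Figure D5:**
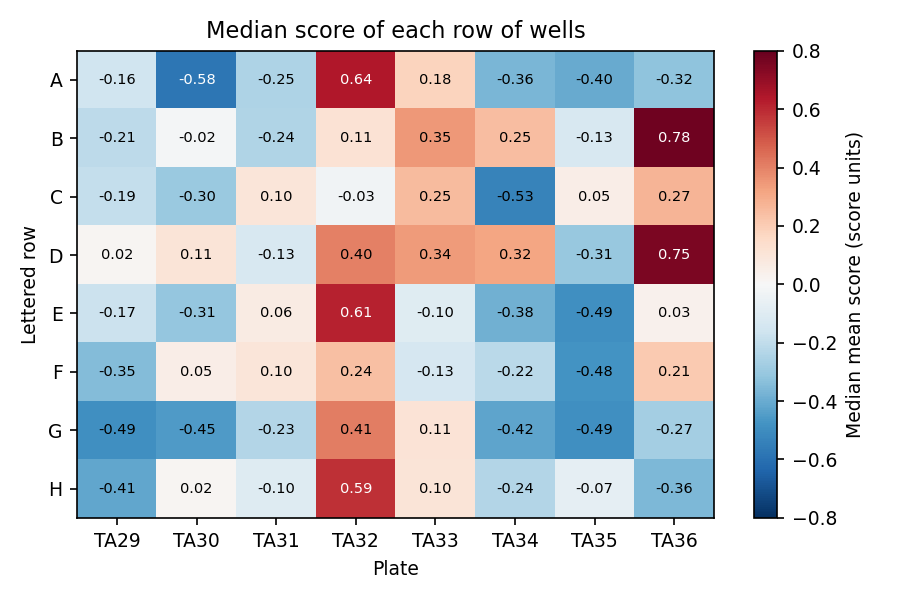
Median of the mean centred score (colour and printed value, score units) of each lettered row of wells (vertical axis) on each plate of the block (horizontal axis), from 6 to 12 tiles a row. Rows B and D of TA36 are the highest, and on TA30 and TA34 rows B, D, F and H all lie above rows A, C, E and G.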

How the data were processed

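The authors' deposited table has 1 column of signed scores per array (21800 features, 4 arrays). Features whose identifier is not of the plate and well form (39) were left out. Of the 21761 tiles that remained, 21716 had a score in all columns. The background correction, normalization, scale and direction of the score are not given in the sources used here. Both arrays of each dye-swap pair hold identical scores and were averaged to 1 value per preparation. The median of the 21716 scored tiles was subtracted within each preparation. Neighbours and runs follow the order of plate, row and column, across unlisted wells, and an unscored tile ends a run. The limma test (version 3.58.1, R 4.3.3; lmFit, eBayes, mean of both preparations against 0) was fitted on all tiles, with p adjusted over all of them. Its code was tested on simulated data, which were independent normal values with known shifts and the spread limma had estimated. Neighbouring tiles are correlated, so that check does not show how the calls behave on the measured tiles. Other steps used numpy 2.4.6, pandas 2.3.3 and scipy 1.17.1.

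The members and lists were chosen with earlier results of these data known. Named tiles are the 3 highest and 3 lowest, the highest and lowest of each plate, the 2 runs with most tiles and the higher mean, the neighbours of both extremes, the 2 widest disagreements and the ends of the block. Alternatives changed the centring, scaling, variance model, threshold, size, order, sign and preparations used. No filter on weak spots was applied, as their brightness was not used here. The number of preparations, 2, limits the precision, because both arrays of a pair hold identical scores.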

Additional observations from a re-analysis of the deposited data

How the results depend on the processing

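The number of high tiles, 57, became 139 with a minimum size of 0.5, 22 with 1.5 and 1 with all signs turned. It became 72 with mode centring (the most frequent score of a preparation taken as 0), and lay between 45 and 66 in a single preparation. The count at -1 or less, 1, became 113 at a size of 0.5, 0 with mode centring and 57 with signs turned. It was 1 to 4 in a single preparation, and 4 when preparation I was left out. Shares of all tiles at or beyond 0.5 and 1.5 are not given here, so these counts are not set against the array. Within 0.5 of 0 lay 66.3% of the block and 64.9% of all tiles. The block median of -0.12 became 0.033 with mode centring, where the zero of every tile moves down, -1.33 with no centring, and 0.12 with signs turned. It was -0.096 to -0.083 in a single preparation, and 0.022 without TA30, TA34 and TA35, the plates with low medians (chosen after seeing the data). By limma 188 higher tiles became 234 with mode centring, 14 with no centring and 74 when a difference of 0.5 had to be exceeded (treat). The 233 lower tiles became 116 with mode centring, 667 with no centring and 7 with treat. With mode centring the higher calls in the block thus outnumbered the lower ones, the reverse of the main setting. Over all 21716 tiles the higher calls, 6856, became 8119 with mode centring, 664 with no centring and 3227 with treat. The lower calls over all tiles, 5420, became 2501 with mode centring, 18246 with no centring and 235 with treat. The correlation of the preparations was 0.86 by rank and 0.83 when 5% at each end were dropped. That of neighbours was 0.61 by rank, 0.61 with plate medians subtracted, 0.093 in column order, 0.64 in either preparation (0.638 and 0.643) and 0.67 over adjacent wells only (added after seeing the data). The longest run became 9 at a size of 0.5, 8 with mode centring, and 4 to 7 in a single preparation, 7 without preparation II. The causes of these moves were not tested beyond what each setting changes by construction. Of 38 named tiles, 0 kept their sign with all signs turned. In a single preparation 36 did, the exceptions being TA33D03 (-0.064 in I, 0.097 in II), TA34B09 (-0.34 and 0.53), TA35B06 (0.73 and -0.23) and TA28H12 (0.29 and -0.24). With equal scaling every count above for high tiles, low tiles, limma calls and the longest run stayed within 1.5 times its value. No paired analysis was possible because there is 1 group, and limma could not be run on a single preparation, which leaves no residual degrees of freedom.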

Other observations

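Alternate rows of wells differed on some plates of the block, a pattern noticed after the row medians had been seen. On TA30 rows B, D, F and H together had a median of 0.033, and rows A, C, E and G -0.42. On TA34 these values were -0.031 and -0.43, and on TA36 0.27 and -0.043. The difference was present in both preparations on all 3 plates, at 0.38 and 0.51 on TA30, 0.32 and 0.37 on TA34, and 0.30 and 0.31 on TA36 in I and II. On TA30 and TA34 every one of rows B, D, F and H had a higher median than every one of rows A, C, E and G.

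Rows B, D, F and H were higher by at least 0.3 on 3 of the 8 plates of the block and on 22 of the other 223 plates (9.87%), and lower by at least 0.3 on 0 of the 8 and on 12 of the 223 (5.38%). The limit of 0.3 was not fixed before the pattern was seen on the block. The other plates include TA20 to TA28 and TA37 to TA51, where mean scores were less spread than in the block. There the difference ran from -0.40 (TA48) to 0.20 (TA28). Plates with all of rows B, D, F and H above all of rows A, C, E and G numbered 2 of 8 and 3 of 223. The difference was above 0 on 6 of the 8 plates (75%) and on 133 of the 223 (59.6%). Averaged over plates the difference was 0.17 ± 0.20 (SD across 8 plates) in the block and 0.046 ± 0.21 (SD across 223 plates) outside it. Whether block and other plates differ in this respect was not tested. High tiles in the block numbered 37 of 371 in rows B, D, F and H (9.97%) and 20 of 377 in rows A, C, E and G (5.31%), beside 12.4% and 11.7% of the tiles outside the block. TA29 and TA32 went the other way, with differences of -0.055 and -0.015. TA32 had 7 high tiles in rows B, D, F and H and 10 in the others, and TA29 had 0 and 2. Tiles 12 positions apart, which on a fully listed plate are in the same column of adjacent rows, correlated with r = 0.067 in the block, and tiles 24 apart with r = 0.15. Outside the block the values were 0.18 at 12 and 0.16 at 24. On the even-numbered plates of the block the plate medians averaged -0.041 ± 0.28 and on the odd-numbered plates -0.12 ± 0.20 (SD across 4 plates each), a difference smaller than the spread between plates.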
